A study of Rattus norvegicus with 8 samples.

Results

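The genes described here are 39 genes of the interferon response and of antigen processing, measured in rat liver before and after partial hepatectomy (PHx, surgical removal of part of the liver). They were chosen by name. A gene entered where the platform annotation gives its symbol, and no other, to a probe set, and of several such probe sets the one brightest on average across the 8 arrays stood for it. Of the 39 genes, 37 had such a probe set, out of 18166 genes on the array. No probe set of that kind was found for Rigi or Bst2. Of the 37, 30 had a mean log2 level of at least 5 and were tested, among 8690 genes tested in all. The 7 below that level were Mx1, Oas1a, Oas2, Oasl, Rsad2, Gbp2 and Zbp1, and their values are given without a test.

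Interferons are cytokines that switch on a shared set of genes through JAK kinases and STAT transcription factors. Type I interferons act mainly through a complex that includes Stat2 and Irf9 and binds the interferon-stimulated response element, and many of the genes it switches on act against viruses. Interferon gamma, made chiefly by T and NK cells, acts mainly through the gamma-activated site, and raises Irf1, chemokines that attract T cells, and the machinery that cuts and transports peptides for display on MHC class I. Of the tested genes, 22 were listed as mainly type I inducible and 6 as mainly gamma inducible, while Cxcl10 and Cxcl11 were listed under both. The lists overlap in biology, since many type I genes also respond to interferon gamma.

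Liver came from male Sprague-Dawley rats on a chronic ethanol diet or on a carbohydrate diet given by pair-feeding. Each diet had a pool of 3 rats given AM21 and a pool of 4 untreated rats. AM21 is an oligonucleotide built with locked nucleic acids to block the microRNA miR-21. It was injected intraperitoneally at 7.5 mg/kg, 72 h before PHx and again right after it. Tissue was taken at 0 h, when 70% of the liver was removed, and at 24 h from the same animals. The arrays were thus ethanol-fed AM21, ethanol-fed untreated, pair-fed AM21 and pair-fed untreated liver, each at 24 h and at 0 h, with 1 array of pooled RNA per group. The spread between animals was not measured. AM21 and untreated rats had separate ranges of animal identifiers, so treatment and cohort cannot be told apart, and no array of sham-operated or control-oligonucleotide rats was analysed here. The levels are the authors' RMA values on a log2 scale, with array medians between 4.114 and 4.233. Hepatocyte marker genes gave nearly the same summed level on every array (log2 14.88 to 14.92). The sum of 6 housekeeping genes was less even, at log2 11.42 to 11.51 at 24 h and 11.01 to 11.31 at 0 h. Their median log2 change (24 h minus 0 h) was 0.44 in the pair-fed untreated pool. In the ethanol-fed AM21, ethanol-fed untreated and pair-fed AM21 pools it was 0.14, 0.14 and 0.25.

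Promoters of some of these genes are shown first, because the genes are defined by their response to interferon and the element read by the type I complex lies near the start of many of them. RefSeq promoters of the GRCr8 assembly, each 300 bases long and lying mostly before a gene's start, were available for 30 of the 39 genes. The letters GAAANNGAAA, a short form of the interferon-stimulated response element, were searched on both strands, so that a match on the other strand reads TTTCNNTTTC. They occurred in 18 of the 30 promoters and in 1312 of all 33469 promoters of the same length (3.92%). The letters TTCNNNGAA, which read the same on both strands and are the core of the gamma-activated site, occurred in 9 of the 30 and in 2970 of all promoters (8.87%). The stretches below hold the first set of letters in capitals, are written 5′ to 3′ on the strand of the gene, and were chosen to show genes with different behaviour in these arrays. Irf7 (chr1:205800058-205800117, minus strand) and Ifit3 (chr1:241527257-241527316, plus strand) stood apart in 1 array. Isg20 (chr1:142239942-142240001, plus strand) differed with diet, and Ifitm3 (chr1:205541768-205541827, minus strand) rose after PHx. Ifih1 (chr3:67683993-67684052, minus strand), Parp14 (chr11:78408033-78408092, plus strand), Cxcl10 (chr14:15988816-15988857, plus strand) and Tap1 (chr20:4668630-4668689, minus strand) passed none of the tests.
Irf7: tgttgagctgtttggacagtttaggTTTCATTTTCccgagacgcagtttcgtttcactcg
Ifit3: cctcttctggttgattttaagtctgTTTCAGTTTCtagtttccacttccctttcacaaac
Isg20: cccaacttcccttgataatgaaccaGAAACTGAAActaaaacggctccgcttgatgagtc
Ifitm3: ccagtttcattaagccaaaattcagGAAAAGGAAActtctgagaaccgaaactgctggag
Ifih1: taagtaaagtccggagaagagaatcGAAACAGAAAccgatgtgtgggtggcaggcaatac
Parp14: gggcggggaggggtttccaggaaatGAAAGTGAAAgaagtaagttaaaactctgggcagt
Cxcl10: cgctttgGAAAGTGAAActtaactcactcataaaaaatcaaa
Tap1: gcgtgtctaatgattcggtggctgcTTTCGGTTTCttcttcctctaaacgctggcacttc
A match describes these letters only, and a promoter without one has no such letters in this window. The letters were present in 2 of the 4 promoters available for genes that stood apart in the pair-fed untreated 24 h array and in 12 of the 20 available for the other tested genes.

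The pattern these genes turned on was a single array. In pair-fed untreated liver at 24 h, 28 of the 30 tested genes were at their highest among the 4 arrays of that time, where 32% of all genes tested were, and 20 were at their highest of all 8 arrays, where 18.9% of all genes were. The 2 genes that were not highest among the 24 h arrays were Irf1 and Trim25. A gene was said to stand apart when this array exceeded the nearest of the other 7 by at least 1.5-fold. That held for 8 of the 30 genes, against 29 of 8690 (0.334%) in all: Mx2, Isg15, Usp18, Irf7, Ifit3, Herc6, Ifit1 and Cmpk2, all of the type I list. Ifit3, Ifit1 and Cmpk2 entered the tested set only through this array, as given with their values below. None of the 30 stood apart as high in any of the other 7 arrays. With 1 array of this group there is no replicate of the pattern, and it carries no p-value. The genes were chosen with the values of this array known, so the count is a description.

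**Figure D1:**
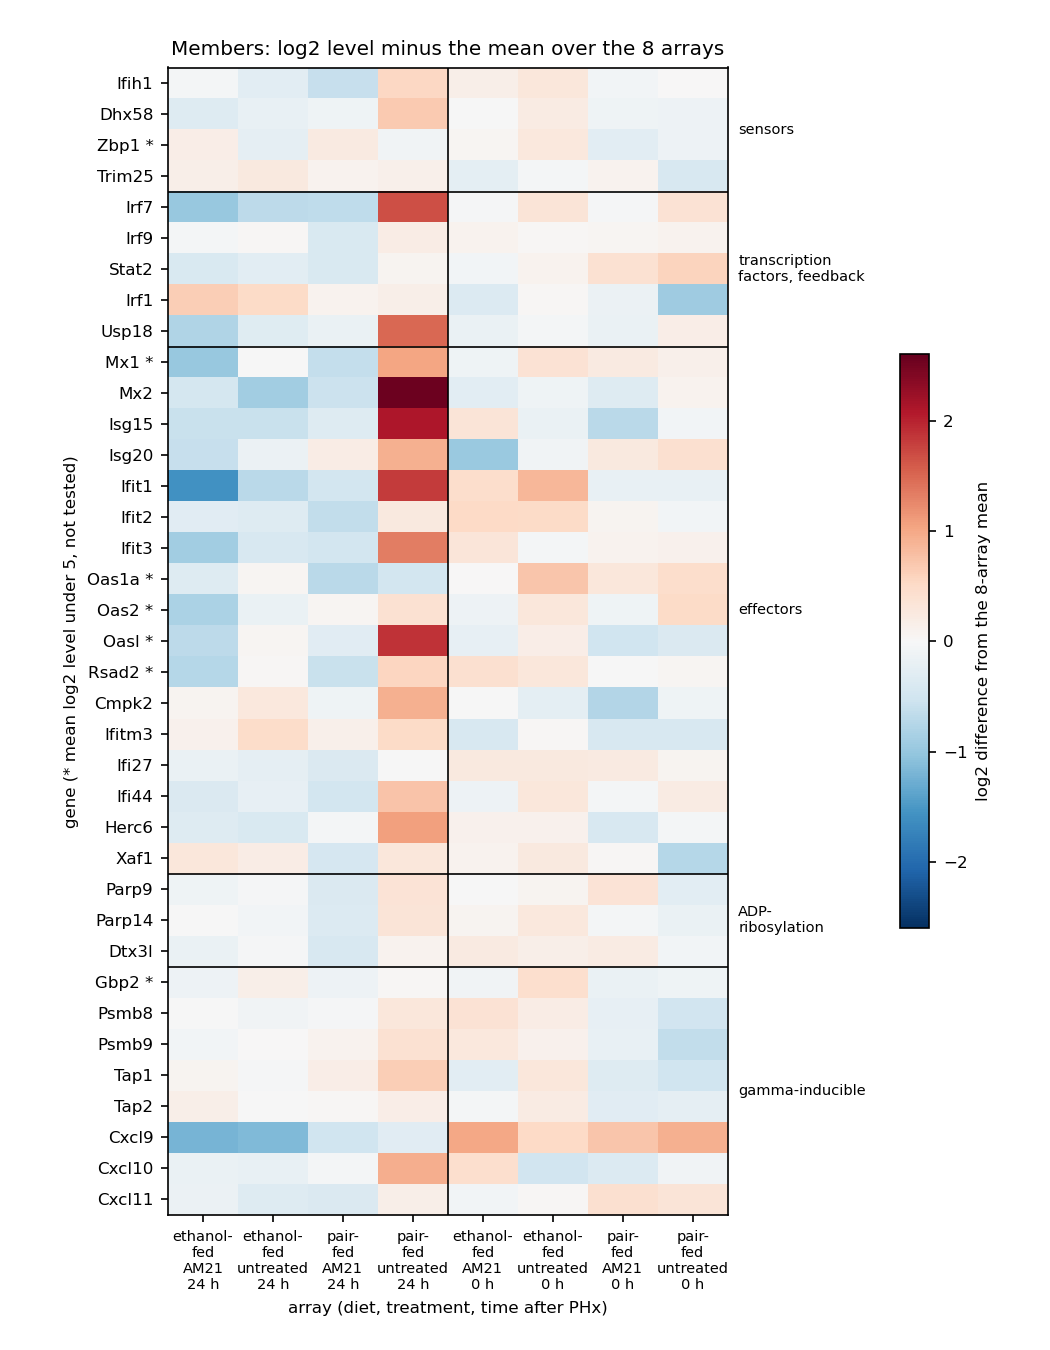
Each cell is a gene's log2 level on 1 array minus its mean over the 8 arrays, for the 37 genes with a probe set, with the 24 h arrays left of the 0 h arrays and the genes grouped by role. The column of pair-fed untreated liver at 24 h is darkest for Mx2, Isg15, Irf7, Usp18, Ifit1 and Oasl, while Cxcl9 is high in all 4 arrays of 0 h.

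Among the antiviral effectors, Mx2, a dynamin-like GTPase, had the widest gap. Its level was 9.50 in pair-fed untreated liver at 24 h, against 6.49, 6.05 and 6.39 in the ethanol-fed AM21, ethanol-fed untreated and pair-fed AM21 pools at that time. At 0 h it was 7.05 in the pair-fed untreated pool and 6.68, 6.83 and 6.62 in those other pools, whose order is kept below. The array lay 5.46-fold above the nearest other one, which was the same pool at 0 h, and the other 7 arrays lay between 6.05 and 7.05.

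Isg15, a ubiquitin-like protein that is joined to other proteins during the response, had the same form. It measured 9.57 in the pair-fed untreated pool at 24 h and 6.90, 6.90 and 7.13 in the other pools at that time. At 0 h the level of Isg15 was 7.41 in the pair-fed untreated pool and 7.80, 7.30 and 6.78 in the others. The gap to the nearest array was 3.41-fold. Herc6, which in the mouse is a ligase that attaches Isg15, measured 6.71 in that array, against 5.31, 5.24 and 5.59 in the other pools at 24 h, with 0 h levels of 5.59 in its own pool and 5.75, 5.75 and 5.23 in the others. Its gap was 1.95-fold.

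The IFIT genes encode proteins that bind foreign RNA, and they split. Ifit1 measured 6.94 in pair-fed untreated liver at 24 h, against 3.55, 4.42 and 4.64 in the other pools at 24 h. At 0 h Ifit1 was at 4.93 in the pair-fed untreated pool and 5.57, 5.98 and 4.93 in the others. It was therefore high in the pair-fed untreated array and, in ethanol-fed AM21 liver at 24 h, also the only tested member to stand apart as low. Ifit3 measured 6.37 in the pair-fed untreated 24 h array, against 4.13, 4.62 and 4.57 at 24 h in the other pools, and lay between 5.00 and 5.36 on all 0 h arrays. Ifit2 did not follow: its 6.69 in that array was under the 0 h levels of both ethanol-fed pools, 6.96 with AM21 and 6.95 untreated, although it was above the 24 h levels of the other pools, 6.14, 6.10 and 5.81.

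Cmpk2, a mitochondrial nucleotide kinase, stood apart by the smallest gap, 1.56-fold. It had 6.03 in the pair-fed untreated pool at 24 h, against 5.19, 5.39 and 4.99 in the other pools, and 4.99 at 0 h in the pair-fed untreated pool, against 5.10, 4.86 and 4.34 in the others. Ifit1, Ifit3 and Cmpk2 reached the level minimum only because of this array. With the minimum set on the other 7 arrays, 5 genes stood apart (Mx2, Isg15, Usp18, Irf7 and Herc6), among 25 of 8677 genes.

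Of the transcription factors and feedback genes, Irf7, the factor that amplifies transcription of type I interferon genes, measured 7.72 in pair-fed untreated liver at 24 h, against 5.06, 5.35 and 5.37 in the other pools. At 0 h Irf7 was at 6.41 in the pair-fed untreated pool and 6.01, 6.37 and 6.01 in the others. Its 24 h levels thus lay above all 0 h levels in 1 pool and below all of them in the other 3. Usp18, which removes Isg15 from proteins and dampens signalling from the type I receptor, measured 7.48 in the pair-fed untreated 24 h array, against 5.22, 5.67 and 5.83 in the other pools. At 0 h it was at 6.16 in that pool and 5.82, 5.94 and 5.83 in the others. Both probe sets of Usp18 placed this array highest, with gaps of 1.33 and 1.23 on the log2 scale.

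The partners in the type I complex did not follow. Stat2 measured 7.75 in the pair-fed untreated pool at 24 h and 7.28, 7.40 and 7.28 in the other pools, all below the 8.25 that the pair-fed untreated pool had at 0 h. Irf9 stayed between 6.73 and 7.33 over the 8 arrays and was highest in the pair-fed untreated 24 h array by 0.11 on the log2 scale.

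The RNA sensors followed in part. Dhx58 (LGP2), a regulator of RNA sensing, measured 5.99 in pair-fed untreated liver at 24 h, against 4.97, 5.11 and 5.20 in the other pools, with 0 h levels between 5.19 and 5.53. Ifih1 (MDA5), a sensor of double-stranded RNA, had 7.83 there and 7.24, 7.02 and 6.70 in the other pools, with 0 h levels between 7.23 and 7.6. Trim25, a ubiquitin ligase that acts with the sensor Rigi, did not: it measured 8.50 in that array and 8.52, 8.62 and 8.45 in the other pools at 24 h. Zbp1, a sensor of Z-form nucleic acid, lay between 3.99 and 4.54 on all arrays, a range in which background weighs heavily.

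**Figure D2:**
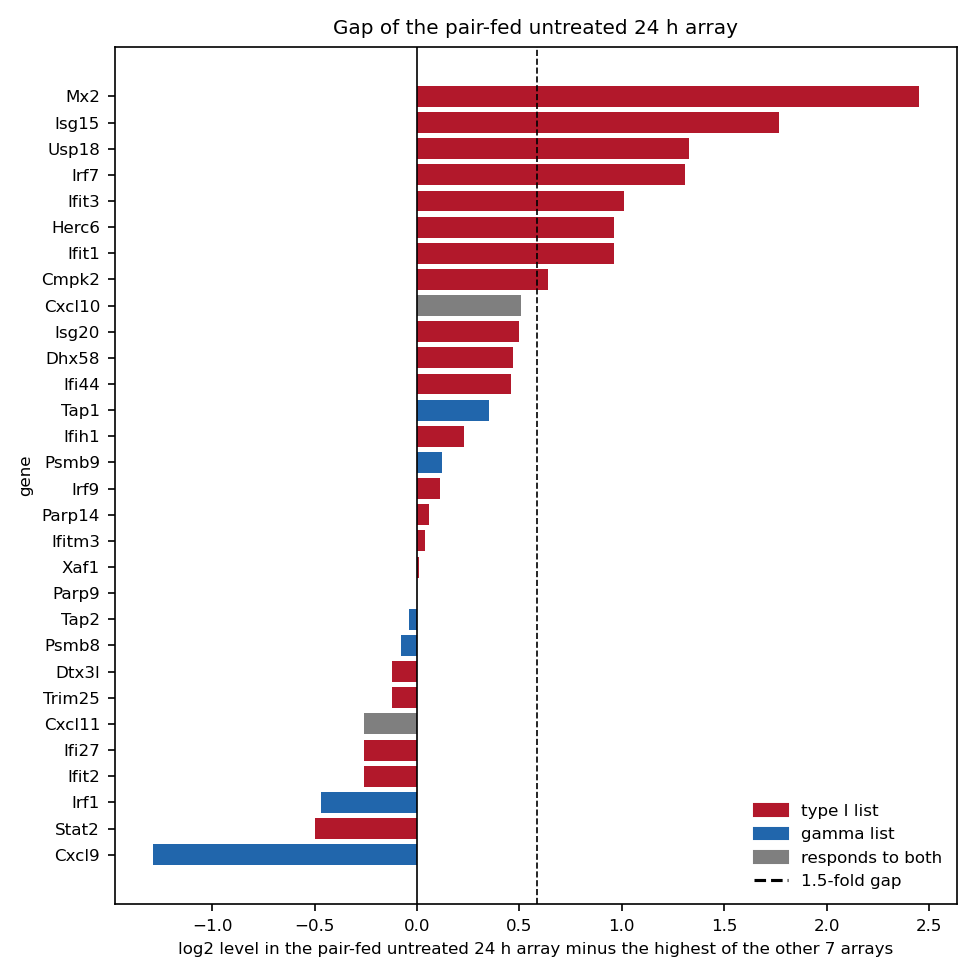
Bars give, for each of the 30 tested genes, the log2 level in the pair-fed untreated 24 h array minus the highest of the other 7 arrays, coloured by list, with a dashed line at a 1.5-fold gap. The 8 bars past the line are all of the type I list, and the lowest bars are Irf1, Stat2 and Cxcl9.

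Just under the 1.5-fold gap were Cxcl10 at 1.43-fold, Isg20 at 1.41-fold and Dhx58 and Ifi44 at 1.38-fold each, against 1.56-fold for Cmpk2 just above it. Measured against the other 24 h arrays alone, these 4 genes and Ifih1 also passed 1.5-fold, which made 13 of 30, where 0.61% of all genes did. These 13 include Ifit1, Ifit3 and Cmpk2, which entered the tested set only through the pair-fed untreated 24 h array. Ifi44, an interferon-induced cytoplasmic protein, measured 6.40 in pair-fed untreated liver at 24 h, against 5.28, 5.44 and 5.18 in the other pools, and between 5.53 and 5.94 at 0 h. Xaf1, which binds the apoptosis inhibitor XIAP, was at 5.90 both there and in ethanol-fed AM21 liver at 24 h.

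Of the 7 genes under the level minimum, 2 had the same form. With them, 10 of the 37 genes with a probe set stood apart, against 58 of all 18166 genes (0.319%). These genes too were chosen with the values of this array known. Oasl, a relative of the oligoadenylate synthetases, measured 6.56 in pair-fed untreated liver at 24 h, against 3.99, 4.72 and 4.38 in the other pools at that time and between 4.15 and 4.84 at 0 h, a gap of 3.28-fold. Mx1, another dynamin-like GTPase, measured 5.82, against 3.81, 4.79 and 4.18, and lay between 4.69 and 5.17 at 0 h, a gap of 1.58-fold. Oas1a, an oligoadenylate synthetase that activates RNase L, did not, with 4.30 in that array, against 4.43, 4.81 and 4.07 in the other pools and 4.77 to 5.48 at 0 h. Rsad2 (viperin), whose gene lies beside Cmpk2 in mammals, measured 5.06 there and at most 4.93 elsewhere. Oas2 and Gbp2 were not highest in that array.

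None of the ADP-ribosylation genes passed a test or stood apart. Parp9 forms a complex with the ubiquitin ligase Dtx3l, and Parp14 is a mono-ADP-ribosyltransferase. Their levels in pair-fed untreated liver at 24 h were 8.53, 7.03 and 8.15 for Parp9, Dtx3l and Parp14. Each was the highest of the 4 arrays of 24 h, but Dtx3l was under 3 of the 0 h arrays and none stood more than 0.06 on the log2 scale above all others. All 3 were higher at 24 h than at 0 h in the pair-fed untreated pool and lower in each other pool, with changes of 0.62, 0.17 and 0.51 for Parp9, Dtx3l and Parp14 there and from −0.72 to −0.08 in the others.

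The gamma-inducible genes were compared with the type I genes pool by pool. The median log2 change (24 h minus 0 h) of the 22 type I genes was 0.71 in the pair-fed untreated pool, and −0.28, −0.37 and −0.36 in the ethanol-fed AM21, ethanol-fed untreated and pair-fed AM21 pools. For the 6 gamma genes it was 0.91 in the pair-fed untreated pool, and −0.06, −0.26 and 0.27 in the others. Over all genes tested the medians were 0.07 in the pair-fed untreated pool and 0.02, 0.01 and −0.05 in the others. Both medians were thus highest in the same pool, and no test of a difference between the lists was made. The 22 type I genes include Ifit1, Ifit3 and Cmpk2, which entered the tested set only through the pair-fed untreated 24 h array.

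The levels behind these changes were then compared. A higher level at 24 h than at 0 h in the pair-fed untreated pool together with a lower one in each other pool was found for 12 of the 22 type I genes and 0 of the 6 gamma genes, and for 6.89% of all genes. These 12 include Ifit1 and Ifit3, which entered the tested set, as did Cmpk2, only through the pair-fed untreated 24 h array. For 4 of the 6 gamma genes (Irf1, Psmb8, Psmb9 and Tap1) the pair-fed untreated pool was the lowest of the 4 arrays of 0 h, as it was for 8 of 22 type I genes and for 3041 of the 8690 genes (35%). With only 6 gamma genes, these counts cannot establish a difference between the lists. On the 24 h arrays alone, the pair-fed untreated one lay above the mean of the other 3 by a median of 0.84 for type I genes, 0.36 for gamma genes and 0.04 for all genes, on the log2 scale.

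**Figure D3:**
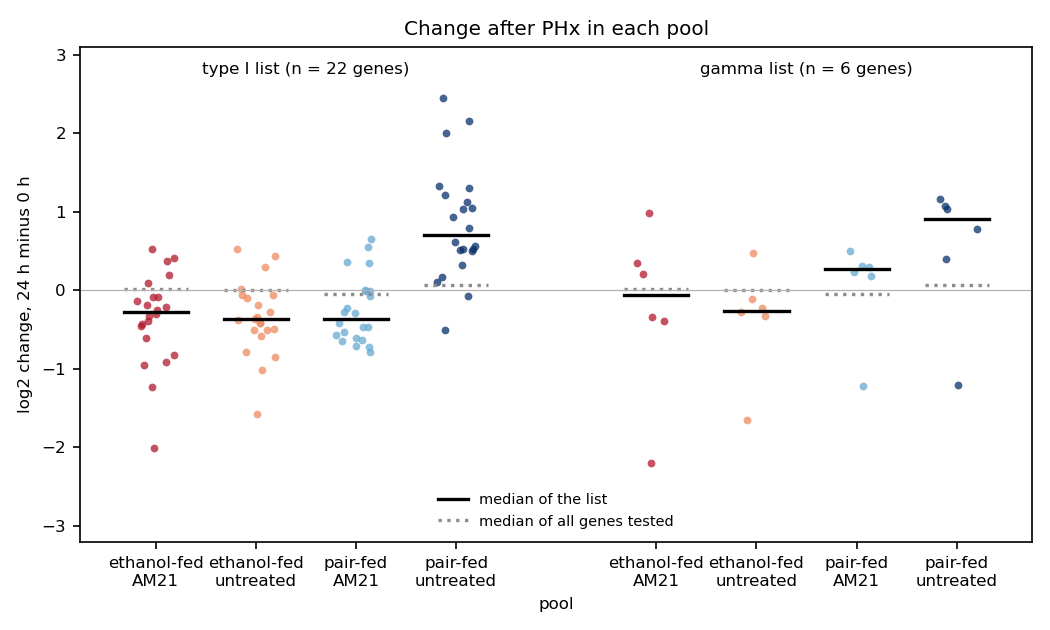
Points are genes, placed by their log2 change (24 h minus 0 h) in each of the 4 pools, for the type I list on the left and the gamma list on the right, with the median of the list as a solid line and that of all genes tested as a dotted line. The type I median is 0.71 in the pair-fed untreated pool and below 0 in the other 3, while the gamma median is also above 0 in the pair-fed AM21 pool.

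Psmb8 and Psmb9 are subunits that replace standard ones to form the immunoproteasome, which cuts proteins into peptides for MHC class I. Psmb9 measured 8.16 in pair-fed untreated liver at 24 h and 7.70, 7.78 and 7.86 in the other pools. At 0 h Psmb9 was at 7.12 in the pair-fed untreated pool, against 8.04, 7.88 and 7.57 in the others, so that pool was both the lowest before and the highest after PHx. Psmb8 was at 8.72 in that pool at 24 h, against 8.41, 8.33 and 8.39, and at 0 h at 7.93, against 8.80, 8.61 and 8.21.

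Tap1 and Tap2 form the transporter that carries peptides into the endoplasmic reticulum. Tap1 measured 6.37 in pair-fed untreated liver at 24 h and 5.80, 5.71 and 5.90 in the other pools, with 0 h levels of 5.21 in that pool and 5.46, 6.03 and 5.40 in the others. Tap2 stayed between 5.28 and 5.79. Neither passed a test. Gbp2, a gamma-inducible GTPase, lay between 4.81 and 5.42.

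Cxcl9, Cxcl10 and Cxcl11 encode the ligands of Cxcr3, a receptor on activated T and NK cells, and each took its own course. Cxcl10 measured 7.64 in pair-fed untreated liver at 24 h and 6.52, 6.51 and 6.65 in the other pools, with 0 h levels of 6.61 in that pool and 7.13, 6.20 and 6.34 in the others. Cxcl11 was at 6.88 in that array, against 6.58, 6.40 and 6.36, and between 6.65 and 7.14 at 0 h. Cxcl9 fell after PHx in every pool.

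The PHx response was tested as 24 h minus 0 h within the 4 matched pools, with limma and Benjamini-Hochberg adjustment over all 8690 genes. Of the 30 genes, 3 rose, where 15.3% of all genes did, and 3 fell, where 12.8% of all genes did. These shares are not above those of all genes, and the median change of 0.04 on the log2 scale was near the 0.01 of all genes. The p-values measure the spread between pools, whose animals and conditions differed.

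Cxcl9 had the largest fall. Its 24 h levels were 5.93 and 5.99 in ethanol-fed liver with and without AM21, and 6.62 and 6.84 in pair-fed liver with and without AM21. Its 0 h levels were 8.13, 7.64, 7.85 and 8.05 in the same order, so the times did not overlap. The difference was −1.57 ± 0.17 (SE, 4 pools; limma adjusted p = 0.00213), a 2.97-fold fall.

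Stat2 fell by 0.49 on the log2 scale (−0.49 ± 0.11, limma adjusted p = 0.0179), and in each pool its 24 h level was the lower one. The 24 h levels were 7.28 and 7.40 in ethanol-fed liver with and without AM21 and 7.28 and 7.75 in pair-fed liver, against 7.59, 7.76, 8.06 and 8.25 at 0 h. The times overlapped slightly, by the pair-fed untreated array. Ifi27, a small protein of mitochondrial and nuclear membranes that is strongly induced by type I interferon in human cells, was at 10.85, 10.79, 10.65 and 11.02 at 24 h and at 11.27, 11.28, 11.25 and 11.09 at 0 h, in the same order of pools. Its difference was −0.40 ± 0.11 (limma adjusted p = 0.0378), the times did not overlap, and the pair-fed untreated pool moved least.

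Ifitm3, which blocks entry of viruses at endosomes, was the most evenly raised. The 24 h levels were 10.59, 10.95, 10.61 and 10.99 in the same order of pools, and the 0 h levels 10.07, 10.52, 10.06 and 10.07. The times did not overlap, and the difference was 0.61 ± 0.11 (limma adjusted p = 0.00864). Its second probe set, between 10.52 and 10.96 at 24 h and between 9.80 and 10.46 at 0 h, gave the same picture.

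Irf1, a transcription factor that is among the first genes switched on by interferon gamma and is also raised by other cytokines, was at 7.55 and 7.42 at 24 h in ethanol-fed liver with and without AM21 and at 7.02 and 7.08 in pair-fed liver. At 0 h it was at 6.57, 6.94, 6.77 and 6.0. The difference was 0.70 ± 0.16 (limma adjusted p = 0.019), and the times did not overlap. Cmpk2 rose by 0.58 ± 0.15 (limma adjusted p = 0.0335), with a 24 h level in the pair-fed AM21 pool (4.99) that was under the highest 0 h level (5.10). It reached the level minimum only through the pair-fed untreated 24 h array, whose pool had the largest change (1.04), and with no level minimum it did not pass (adjusted p = 0.0641).

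**Figure D4:**
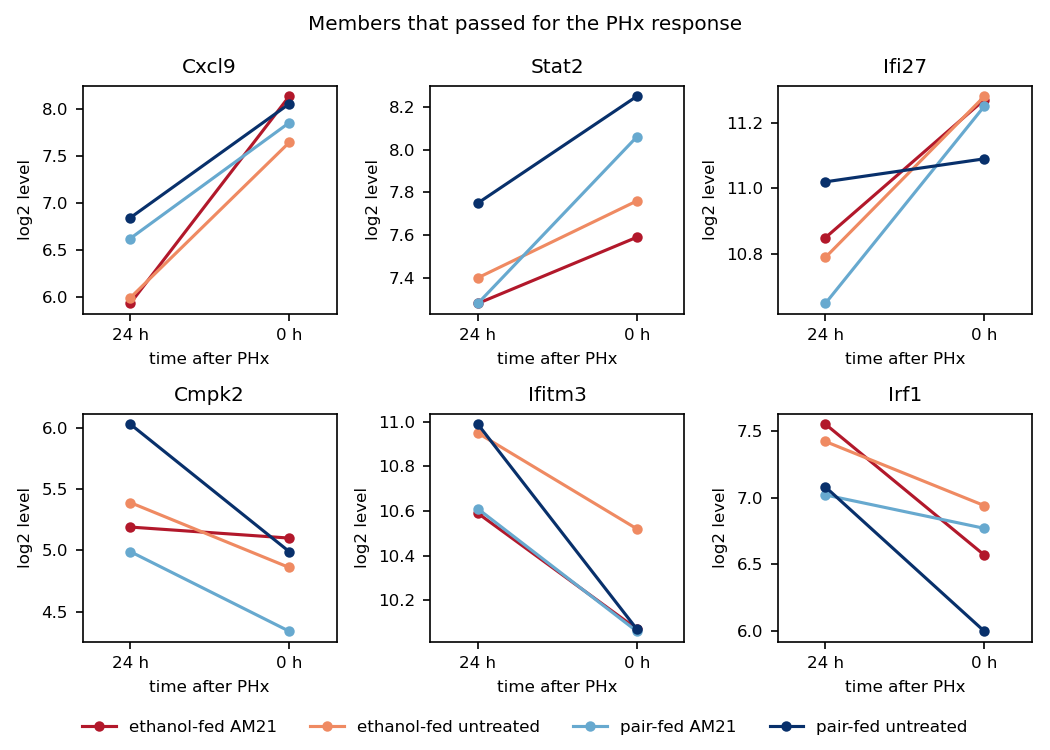
Each panel shows 1 of the 6 genes that passed for the PHx response, with its log2 level at 24 h on the left and at 0 h on the right and a line for each pool. Cxcl9, Ifi27, Ifitm3 and Irf1 have no overlap between the times, and the pair-fed untreated pool has the steepest rise for Cmpk2 and the flattest line for Ifi27.

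How far these calls rested on the pair-fed untreated pool was measured by leaving that pool out. Then 6 genes fell, where 9.55% of all genes did, and 1 rose, where 10.1% of all genes did. Cxcl9 and Ifi27 still fell and Ifitm3 still rose. The other 4 falls were Irf7 (−0.87, limma adjusted p = 0.0122), Ifit2 (−0.79, 0.0107), Ifit3 (−0.73, 0.0488) and Ifi44 (−0.39, 0.0477), log2 differences each followed by its adjusted p. Ifit3 was in the tested set only through the array left out here. Irf1 (adjusted p = 0.0642), Stat2 (0.0549) and Cmpk2 (0.0866) no longer passed. Among the 6 genes called with all pools, Cxcl9 and Ifitm3 passed whichever pool was left out. Leaving out the ethanol-fed AM21 pool ended the calls of Ifi27 and Irf1. Leaving out the ethanol-fed untreated pool or the pair-fed AM21 pool ended those of Ifi27 and Cmpk2.

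Diet was tested as ethanol-fed minus pair-fed over the 8 arrays. Of the 30 genes 1 was lower, Isg20, where 0.0806% of all genes were, and 0 were higher, where 0.38% of all genes were. Isg20 encodes an exonuclease that degrades single-stranded RNA. Its levels were 5.80 and 6.25 in ethanol-fed AM21 and untreated liver at 24 h and 5.43 and 6.31 in the same pools at 0 h, against 6.58 and 7.32 in pair-fed AM21 and untreated liver at 24 h and 6.65 and 6.82 at 0 h. All 4 ethanol-fed arrays lay below all 4 pair-fed arrays. The difference was −0.90 ± 0.12 on the log2 scale (limma adjusted p = 0.0321), or 1.86-fold. The call was lost whichever 1 of the 8 arrays was left out (adjusted p from 0.0568 to 0.131). Isg20 also did not pass at 24 h alone (−0.92, 0.127) or at 0 h alone (−0.87, 0.101). These arrays came from 2 pools per diet.

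AM21 against untreated passed for 0 of the 30 genes and for 0% of all genes by limma, with a lowest adjusted p of 0.667 among the 30. At an unadjusted p under 0.05 there were 4 of the 30 and 538 of the 8690 genes. The change after PHx also did not differ detectably between AM21 and untreated pools, with 0 of the 30 and 0% of all genes (lowest limma adjusted p 0.241; 6 of the 30 and 604 of all genes at an unadjusted p under 0.05).

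A difference between diets in the change after PHx passed for 2 genes by limma, Ifit1 and Isg15, both with a lower change in ethanol-fed liver, where 0.46% of all genes were, and for 0 genes in the other direction, where 0.069% were. The change of Ifit1 was −2.01 and −1.57 in ethanol-fed AM21 and untreated liver, against −0.29 and 2.01 in pair-fed AM21 and untreated liver. The difference of the changes was −2.65 ± 0.38 (adjusted p = 0.0301). Ifit1 reached the level minimum only through the pair-fed untreated 24 h array, which also gives the highest of these changes, and with no level minimum its adjusted p was 0.135. Isg15 changed by −0.91 and −0.41 in those ethanol-fed pools, against 0.35 and 2.16 in those pair-fed pools, a difference of −1.91 ± 0.30 (adjusted p = 0.0472). For both genes the pair-fed untreated pool lay further from the pair-fed AM21 pool than that pool lay from the nearer ethanol-fed one, and the fit had 1 residual degree of freedom. In a fit with no AM21 term the adjusted p was 0.438 for Ifit1 and 0.443 for Isg15. That fit without the pair-fed untreated pool gave −1.50 (0.0924) for Ifit1 and −1.01 (0.180) for Isg15.

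Other genes of the pathway were read from lists that hold none of the 39. None of the 6 interferon genes with a probe set reached the level minimum (highest mean 4.45), so no statement on the ligands can be made. Of 13 tested receptor and signalling genes, 1 rose after PHx, where 15.3% of all genes did, and 1 fell, where 12.8% did. Socs3, an inhibitor of JAK signalling, rose (1.08 ± 0.16, limma adjusted p = 0.00442). Il10rb, a receptor chain shared by type III interferons, fell (−0.32 ± 0.09, 0.0391), and 11 did not pass. None of 10 tested genes of nucleic acid sensing passed, against the same shares of all genes for the PHx response. Of 26 other tested interferon-stimulated genes, Pnpt1, an RNA exonuclease of mitochondria, rose (0.44 ± 0.12, 0.0391) and Ifi35 fell (−0.38 ± 0.11, 0.049), where 15.3% of all genes rose and 12.8% fell. In that list 10 were highest of the 8 arrays in pair-fed untreated liver at 24 h, where 18.9% of all genes were, and 2 stood apart there, where 0.334% of all genes did: Oas1i, an oligoadenylate synthetase, by 0.75 on the log2 scale, and Sp110, a nuclear body protein, by 0.65.

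Genes of antigen presentation changed in both directions. Of 13 tested genes of MHC class I processing, 4 rose after PHx by limma, where 15.3% of all genes did: Psmb10, the remaining immunoproteasome subunit (0.66 ± 0.10, adjusted p = 0.00523), Psme2, a proteasome activator (0.38 ± 0.08, 0.0171), and the folding chaperones Calr (0.46 ± 0.09, 0.0111) and Pdia3 (0.31 ± 0.08, 0.0324). The class I gene RT1-S3 fell (−1.43 ± 0.15, 0.00195), where 12.8% of all genes did, and 8 did not pass. Its probe set may share signal with near-identical RT1 genes, as may those of the class II genes. Of 8 tested MHC class II genes, 4 fell, where 12.8% of all genes did: Cd74, the invariant chain (−0.56 ± 0.08, 0.00503), RT1-Da (−0.79 ± 0.09, 0.00213), RT1-Ba (−0.65 ± 0.11, 0.00786) and RT1-Bb (−0.50 ± 0.08, 0.00737). RT1-DMa, which helps load peptides, rose (0.51 ± 0.14, 0.0348), where 15.3% of all genes did, and 3 did not pass.

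Markers of immune cells moved with several of these results, and in whole liver fewer cells of a type and less RNA per cell cannot be told apart. The sum of 17 listed T and NK cell genes was log2 8.79 to 9.0 at 24 h and 9.33 to 9.64 at 0 h. Only 2 of them reached the level minimum, Ccl5 (−0.97 ± 0.09, limma adjusted p = 0.00168) and Cd4 (−0.42 ± 0.10, 0.0274). Both fell, as Cxcl9 did, where 12.8% of all genes fell, and which cells their RNA came from was not tested. MHC class II genes summed to log2 10.68 to 11.05 at 24 h and 11.02 to 11.58 at 0 h. Some markers of cells that carry class II fell as well: Clec4f (−0.66 ± 0.14, 0.0147), Adgre1 (−0.61 ± 0.11, 0.00905) and Csf1r (−0.43 ± 0.09, 0.015) of Kupffer cells and macrophages. Of 2 tested genes of dendritic cells, Clec9a fell (−0.61 ± 0.10, 0.00623), where 12.8% of all genes did. The macrophage receptor Marco rose (1.06 ± 0.10, 0.00172), and the other 9 of the 13 tested macrophage genes did not pass. In that list 1 gene thus rose, where 15.3% of all genes did, and 3 fell, where 12.8% did. The list as a whole hardly moved, with a median difference of −0.06. Its sum was log2 11.21 to 11.91 at 24 h and 11.34 to 11.87 at 0 h. The neutrophil and monocyte genes S100a8 (3.09 ± 0.37, 0.00249) and S100a9 (2.01 ± 0.32, 0.00592) rose, where 15.3% of all genes did. The rest of the 5 tested genes of that list did not pass, and the median difference of the 5 was 0.30. The 10 genes of that list summed to log2 9.77 in pair-fed untreated liver at 24 h, within the 8.67 to 9.96 of the other pools at 24 h. In that same array the Kupffer cell and macrophage list was at 11.46 (11.21 to 11.91 in the others at 24 h), the T and NK list at 8.79 (8.79 to 9.0), the B cell list, of which no gene reached the level minimum, at 6.65 (6.40 to 6.69) and the dendritic cell list, which includes plasmacytoid cells and of which 2 of 7 genes reached the minimum, at 7.20 (7.25 to 7.28). The sums of the T and NK, B and dendritic cell lists include mostly genes under the level minimum. The part of these immune cells in the falls of Cxcl9 and the class II genes was not tested. Nor was their part in the high type I levels of the pair-fed untreated 24 h array.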

How the data were processed

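Liver RNA of 8 groups was measured on 1 Affymetrix array each, after pooling, amplification and biotin labelling per the labels' protocols. The authors deposited log2 values that, per the submitters' processing notes, came from RMA in Affymetrix Expression Console, with no version stated in the sources used here. RMA brings the arrays' distributions close together and gives no detection call. Of 36685 probe sets, 18511 have 1 symbol, 575 several and 17599 none here. The tests kept genes whose log2 levels averaged 5 or more, since lower levels are uncertain. The members and lists were chosen with earlier results of these data known.

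Fits used limma 3.58.1 in R 4.3.3 with Benjamini-Hochberg adjustment at 0.05 and were tested on simulated data. The labels' animal identifiers pair the 0 h and 24 h arrays, so the PHx response and the interactions have the pool as a fixed block (3 and 1 residual degrees of freedom). Diet and AM21 came from 1 additive fit, with a pool correlation estimated at −0.371 and set to 0, so the 8 arrays counted as independent despite coming from 4 pools. Members passing a test or standing apart were named, with others of each role for contrast. Arrays have no read depth; their number limits the precision. Other level minimums, probe set rules, centring, models and left-out pools or arrays were tried.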

Additional observations from a re-analysis of the deposited data

Results flagged for a closer look

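In 60 sets of 4 arrays (each tested gene at 24 h and at 0 h), the gap of the most distant array was set against the range of the 4 by Dixon's criterion at its 95% limit. Chance alone flags about 1 set in 20 where the 4 are replicates, and here they differ in diet and treatment. In 6 sets the limit was passed. At 24 h the pair-fed untreated array was the distant one, and high, for Isg15 (0.913), Irf7 (0.882), Mx2 (0.873) and Cxcl10 (0.873). The genes were chosen with the values of this array known, so these flags are no separate support for the pattern. Xaf1 was set apart at 24 h by a low pair-fed AM21 array (0.845), and Ifitm3 at 0 h by a high ethanol-fed untreated array (0.98). The interaction of PHx and diet in limma was also flagged, for Ifit1 (−2.65 on the log2 scale) and Isg15 (−1.91). Ifit1 entered the tested set only through the pair-fed untreated 24 h array. That array also enters both terms, so they are no separate support either. Neither gene passed in a fit with no AM21 term (limma adjusted p = 0.438 and 0.443).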

How the results depend on the processing

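No difference that passed changed direction under any alternative. The PHx difference of Ifit3, which did not pass, was −0.24 with all pools and 0.09 without the ethanol-fed AM21 pool. For the PHx response, 6 genes passed, and from 4 to 7 with 1 pool left out. With no pool block, which ignores the pairing, 5 passed and Cmpk2 did not (adjusted p = 0.0721). With no level filter, Cmpk2 (0.0641) and Ifi27 (0.0892) no longer passed. No paired analysis by replicate number was made: the replicate numbers in the labels name no pairs, so the pool was the block. The diet count of 1 became 0 with no level filter, with the 0 h arrays alone, with the 24 h arrays alone and with each array left out in turn (0 to 0), and 2 once every 2-way interaction was modelled, which added Usp18 (−0.66, 0.0405). The 2 genes with a diet difference in the PHx change became 0 with no level filter, with a minimum of 6 (which removes Ifit1), in a fit with no AM21 term and in that fit without the pair-fed untreated pool, the last chosen after seeing the data. They became 1 with each array centred on its median and 5 with an intensity trend and robust prior, which added Herc6, Psmb8 and Psmb9. The 8 genes standing apart became 5 with a 2-fold gap, 13 against the 24 h arrays alone and 5 with the level minimum on the other 7 arrays, also chosen after seeing the data. The cause of these shifts was not tested. The AM21 count stayed 0 throughout. A further 132 member results did not pass in the tests reported or under any alternative. Levels near or under 5 limit Ifit1, Ifit3, Cmpk2 and the 7 untested genes.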

Other observations

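Beyond the listed interferon genes, 19 further genes stood apart as high in pair-fed untreated liver at 24 h. The widest gaps were those of Samd9l, Lipo1 and Cyfip2, which were named for their rank after their values were seen. Samd9l, which restrains cell growth and translation and is itself interferon-inducible in human cells, measured 7.47 in that array, against 5.47, 5.83 and 5.14 in ethanol-fed AM21, ethanol-fed untreated and pair-fed AM21 liver at 24 h, and 5.93 to 6.17 at 0 h. Lipo1 measured 8.77, against 5.92, 5.94 and 7.21 at 24 h, with 0 h levels of 7.49 in that pool and 6.48, 6.71 and 7.21 in the others, so it was also higher in pair-fed than in ethanol-fed liver at both times. Cyfip2, a regulator of actin, was at 7.11, against 5.67, 5.71 and 5.97 at 24 h, and at 4.54 to 4.65 at 0 h, and so was higher at 24 h in every pool. Of the 10 genes with the widest gaps in that array, 7 were among the 30 tested interferon genes, out of 8690 genes tested. The interferon genes were chosen with the values of this array known, so this count is a description. Of those 7, Ifit3 and Ifit1 entered the tested set only through that array.

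The pair-fed AM21 array of 24 h had more genes standing apart as high than any other array (112 genes, 1.29%), yet none of the 30 tested interferon genes was among them.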
